A study of Homo sapiens with 8 samples.

Results

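CXCL1, CXCL2, CXCL3, CXCL8, CCL2, CCL20, IL6, LIF, NFKBIA and TNFAIP3, 10 genes of chemokine and NF-kB responses, were followed in a pair of ovarian cancer lines grown in the presence of simvastatin or of L-778123. They were taken as a named list, and each was read at the array probe whose identifier maps to its symbol in RefSeq; of several probes, the one with the highest mean over the arrays was used. All 10 had a probe among the 22428 genes named on the array, and 9 were among the 16942 genes tested, a gene being tested if its probe exceeded background clearly (the scanner software's well-above-background flag) on both arrays of any group. CXCL8 was well above background on no array and was not tested.

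NF-kB is a family of dimeric transcription factors held in the cytoplasm by inhibitors of the IkB family until a receptor signal activates the IkB kinase complex. Its targets include neutrophil- and monocyte-attracting chemokines, IL-6 family cytokines, and the inhibitors NFKBIA and TNFAIP3, which feed back to switch the signal off. In ovarian carcinoma, these chemokines and cytokines are secreted by the tumor cells themselves and are found in ascites.

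Total RNA from the established lines OVSAHO and KURAMOCHI, both models of serous ovarian carcinoma, was hybridized to one-color human gene expression arrays. Each line was cultured with simvastatin, an inhibitor of HMG-CoA reductase at the head of the mevalonate pathway, or with L-778123, an inhibitor of the farnesyl and geranylgeranyl transferases of protein prenylation, and each of the 4 groups had 2 arrays. The comparison of the drugs addressed what simvastatin changes beyond protein prenylation. Drug doses and times of exposure for these arrays are not given in the sources used here, and untreated or vehicle-treated cells were not analysed here. Each contrast is therefore between the 2 drugs and does not tell which of them moved a gene. Nothing in the labels says that the 2 arrays of a group came from separate cultures, so p-values measure only the spread between these samples, which may be technical. All 8 arrays lay on 1 slide, with each group in its own positions, so that group and slide position cannot be told apart.

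Processed intensity at the 75th percentile ranged from 324 to 437 over the arrays, and 51.8% to 57.5% of probes were well above background; the number of arrays limits the precision. All 10 markers of serous epithelium, PAX8, WT1 and EPCAM among them, passed the background flag on every array. Their summed level, in multiples of the array's 75th percentile, was 671 to 753 in OVSAHO, and in KURAMOCHI it was 456 to 464 with simvastatin and 762 to 786 with L-778123. Of 8 fibroblast markers, THY1 alone passed on both arrays of both OVSAHO groups, and COL1A1, COL3A1 and THY1 passed in both KURAMOCHI groups, with summed levels of 0.410 to 0.868 in OVSAHO and 17.8 to 21.8 in KURAMOCHI. For leukocytes, 3 to 4 of the 8 markers with a probe passed in each group, and for endothelium 2 to 4 of 6, and no summed level of either list exceeded 2.10. The part of these differences in the results below was not tested.

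The RefSeq promoter windows (GRCh38.p14, 250 bases before to 50 after the start) show what several of these genes share in sequence, apart from their array values. Windows were found for 8 of the 10 genes, and for CCL2 and LIF no entry was found. The kappa B consensus of NF-kB, searched for by that name on both strands, matched in 7 of the 8 windows, or 87.5%, and in 2075 of 35116 windows of the same length over all genes, or 5.91%. The genes were listed for NF-kB responses, so setting these shares side by side is no test, and 3 of the 7 windows belong to paralogs. A match is a description of the letters and not evidence of binding. The array responses of the 3 CXCL paralogs were not tested against each other, though their calls, given below, differed. The windows printed below are those of these paralogs and of both NF-kB inhibitors, with matches in capitals. They lie at chr4:73869143-73869442 on the plus strand (CXCL1), chr4:74099146-74099445 on the minus strand (CXCL2), chr4:74038640-74038939 on the minus strand (CXCL3), chr14:35404700-35404999 on the minus strand (NFKBIA) and chr6:137867009-137867308 on the plus strand (TNFAIP3), each written 5′ to 3′ along the gene.
CXCL1: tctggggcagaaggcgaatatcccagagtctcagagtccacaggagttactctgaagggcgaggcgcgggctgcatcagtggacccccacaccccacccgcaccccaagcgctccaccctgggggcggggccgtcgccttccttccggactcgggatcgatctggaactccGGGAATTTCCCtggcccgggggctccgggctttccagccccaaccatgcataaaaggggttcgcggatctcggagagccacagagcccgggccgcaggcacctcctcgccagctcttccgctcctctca
CXCL2: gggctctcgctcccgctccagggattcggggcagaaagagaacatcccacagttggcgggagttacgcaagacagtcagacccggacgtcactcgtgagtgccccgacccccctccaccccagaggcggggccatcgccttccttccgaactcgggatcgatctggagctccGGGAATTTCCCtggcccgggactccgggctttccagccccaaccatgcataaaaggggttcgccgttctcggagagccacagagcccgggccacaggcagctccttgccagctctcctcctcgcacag
CXCL3: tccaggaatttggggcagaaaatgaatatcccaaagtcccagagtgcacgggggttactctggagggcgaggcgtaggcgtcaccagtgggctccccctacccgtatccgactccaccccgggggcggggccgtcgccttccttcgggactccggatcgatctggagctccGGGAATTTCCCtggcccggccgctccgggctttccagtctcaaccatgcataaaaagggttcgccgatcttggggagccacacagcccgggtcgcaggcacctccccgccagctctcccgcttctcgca
NFKBIA: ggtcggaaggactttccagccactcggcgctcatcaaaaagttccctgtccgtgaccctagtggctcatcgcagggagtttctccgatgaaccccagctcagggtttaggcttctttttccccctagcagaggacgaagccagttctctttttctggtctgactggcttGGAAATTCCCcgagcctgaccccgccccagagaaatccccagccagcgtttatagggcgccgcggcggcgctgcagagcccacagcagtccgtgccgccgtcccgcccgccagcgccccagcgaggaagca
TNFAIP3: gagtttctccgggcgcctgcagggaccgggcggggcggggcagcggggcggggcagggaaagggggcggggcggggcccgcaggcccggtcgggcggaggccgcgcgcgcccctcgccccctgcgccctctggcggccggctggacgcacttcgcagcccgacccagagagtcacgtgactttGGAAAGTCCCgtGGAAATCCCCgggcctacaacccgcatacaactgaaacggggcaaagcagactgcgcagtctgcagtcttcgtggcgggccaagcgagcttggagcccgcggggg

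The capitals of CXCL1, CXCL2 and CXCL3 were the same letters, which hold overlapping matches on both strands. They spanned bases -79 to -69 from the start in CXCL1 and in CXCL3 and -78 to -68 in CXCL2. Over the whole window, CXCL1 was 82.5% identical to CXCL3 and 71.3% identical to CXCL2, and CXCL2 was 72.8% identical to CXCL3. NFKBIA held 1 match on the opposite strand at -81 to -72, and TNFAIP3 held 2 on the opposite strand at -67 to -58 and -55 to -46. In the windows not printed, CCL20 matched at -79 to -70 and IL6 at -73 to -64, and the CXCL8 window held no match, which says only that these letters are not in it.

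**Figure D1:**
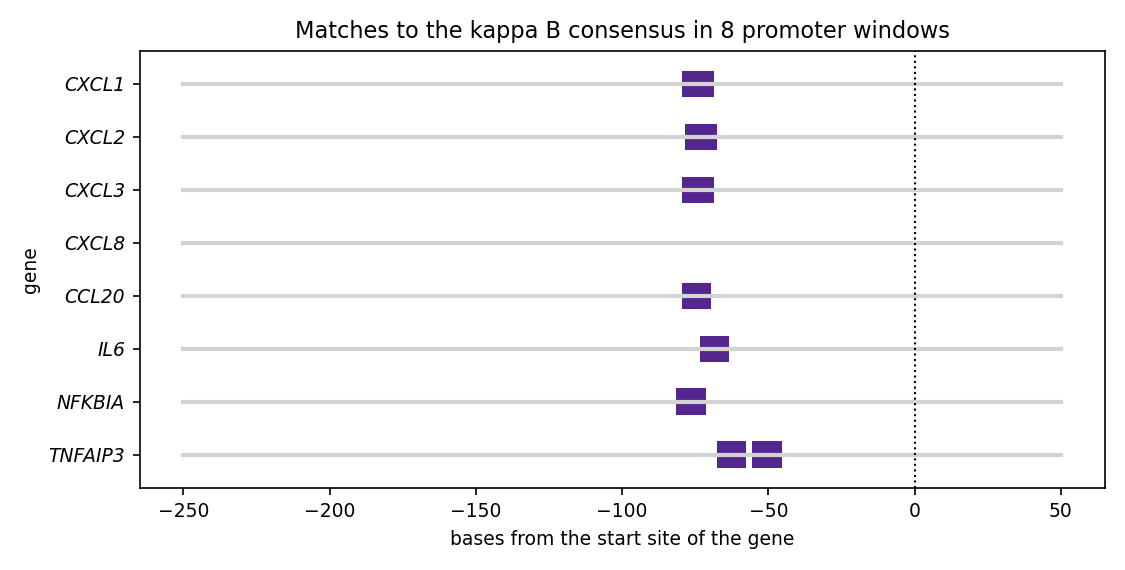
Position of kappa B consensus matches in the 8 promoter windows found, with bases from the start site on the x axis and 1 gene per row; grey lines are the windows and blocks the matches on either strand. Matches in 7 windows lie between -81 and -46, and the CXCL8 row has none.

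The drug differences called among these genes were a lower CCL2 with simvastatin than with L-778123 in both lines, a lower CXCL1 in OVSAHO, and a higher CXCL2 in KURAMOCHI. The CXCL2 difference was near the 2-fold threshold and fell below it in some alternatives given below. LIF and TNFAIP3 were lower with simvastatin in both lines by less than 2-fold. Levels are given as log2 intensity relative to the array's 75th percentile, so 0 is that percentile and a step of 1 is 2-fold; levels of different genes come from different probes and were not set against each other. A gene was called when limma's adjusted p, by Benjamini-Hochberg over all 33753 tested probes, was under 0.05 and the difference was at least 2-fold. In OVSAHO, 2 of the 9 tested genes were called lower with simvastatin (CXCL1 and CCL2) and 0 higher, where 5.87% of all tested genes were called lower and 5.69% higher. By limma, 6 of the 9 had an unadjusted p under 0.05, and the two-way analysis of variance named in the methods called 2. In KURAMOCHI, 1 was called higher (CXCL2) and 1 lower (CCL2), where 2.43% of all tested genes were called higher and 2.93% lower. A further 2 genes higher and 2 lower in each line passed the adjusted p alone, with differences under 2-fold. Among 113 other tested genes of these pathways, 29 higher and 22 lower did so in OVSAHO, and 13 and 26 in KURAMOCHI. In OVSAHO 82 of these 113 had an unadjusted p under 0.05 by limma. For the adjusted p alone and for the unadjusted p, the share over all tested genes is not given. The median log2 difference of the 9 genes was -0.13 in OVSAHO and 0.021 in KURAMOCHI, beside 0.014 and 0.012 over all tested genes.

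**Figure D2:**
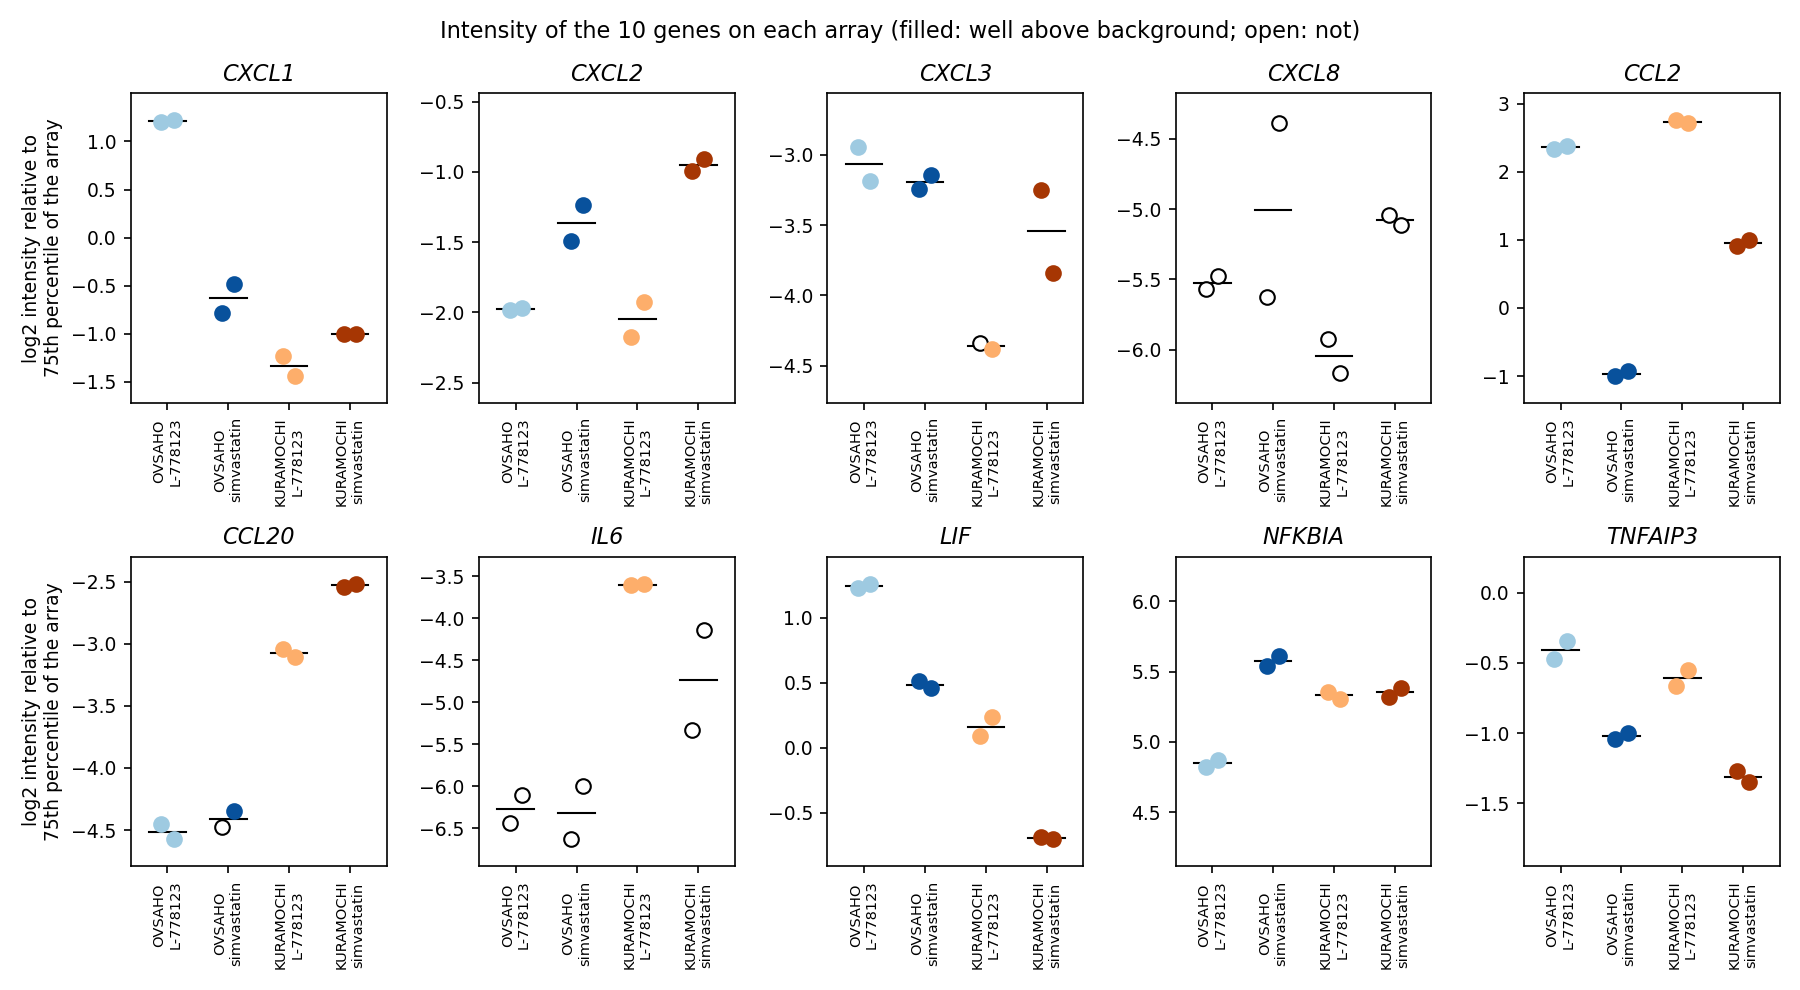
Level of each of the 10 genes on each of the 8 arrays, as log2 intensity relative to the 75th percentile of the array (y axis, a separate range for each gene), by cell line and drug; points are arrays, lines are group means, and open points are spots not well above background. CCL2 lies lower with simvastatin in both lines, CXCL1 only in OVSAHO, and all CXCL8 points are open.

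CCL2, which attracts monocytes through its receptor CCR2, had the widest range of group means among the 9 genes, at 3.70 on the log2 scale. Its level was -0.996 and -0.931 on the OVSAHO simvastatin arrays, 2.34 and 2.38 with L-778123, 0.91 and 1.00 on the KURAMOCHI simvastatin arrays, and 2.76 and 2.71 with L-778123. No groups overlapped, and the order was KURAMOCHI with L-778123, OVSAHO with L-778123, KURAMOCHI with simvastatin and OVSAHO with simvastatin. The difference was -3.33 (SE 0.061; limma, adjusted p = 1.28e-05) in OVSAHO, 10.02-fold lower with simvastatin and 33rd from the lowest of all tested genes. In KURAMOCHI it was -1.78 (SE 0.061; limma, adjusted p = 1.24e-04), 3.44-fold lower and 116th from the lowest. The difference between the lines in this drug contrast was itself -1.54 (SE 0.087; limma, adjusted p = 5.11e-04), the contrast being larger in OVSAHO.

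CXCL1, a neutrophil attractant acting on CXCR2, gave different contrasts in the lines. It read -0.79 and -0.48 in OVSAHO with simvastatin, 1.20 and 1.22 with L-778123, -1.003 and -1.002 in KURAMOCHI with simvastatin, and -1.23 and -1.44 with L-778123. OVSAHO with L-778123 stood above the other 3 groups, and no groups overlapped. CXCL1 was 3.59-fold lower with simvastatin in OVSAHO, a log2 difference of -1.84 (SE 0.12; limma, adjusted p = 1.74e-04). In KURAMOCHI the difference was 0.33 (SE 0.12; 95% interval 0.030 to 0.63; limma, adjusted p = 0.0908) and was not called. The contrasts differed by -2.17 (SE 0.17; limma, adjusted p = 0.00120). A dimmer probe for the gene, well above background on all 8 arrays, gave -1.33 in OVSAHO, 0.48 in KURAMOCHI and -1.81 for the difference between them.

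CXCL2, a close paralog of CXCL1 with the same receptor, was called in KURAMOCHI, where it was higher with simvastatin. The arrays read -0.99 and -0.91 in KURAMOCHI with simvastatin and -2.18 and -1.92 with L-778123, and in OVSAHO -1.49 and -1.24 with simvastatin and -1.99 and -1.97 with L-778123. KURAMOCHI with simvastatin was the highest group, and the L-778123 groups of the 2 lines overlapped. The KURAMOCHI difference was 1.101 (SE 0.12; limma, adjusted p = 0.00208), or 2.15-fold, and it was below 2-fold with another background correction, limma's normexp model of signal plus noise (0.71), and without KURAMOCHI L-778123 replicate 1 (0.97; adjusted p = 0.0120). In OVSAHO the difference was 0.61 (SE 0.12; limma, adjusted p = 0.00859), under 2-fold. The difference between the lines was -0.49 (limma, adjusted p = 0.0942) and was not called. A dimmer CXCL2 probe gave 1.01 in KURAMOCHI but -0.27 (limma, adjusted p = 0.203) in OVSAHO, so the 2 probes disagreed in sign there, and on this probe the lines differed by -1.28 (limma, adjusted p = 0.0126).

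CXCL3, the third paralog of that cluster, was dimmer. Its level was -3.24 and -3.14 in OVSAHO with simvastatin, -2.94 and -3.18 with L-778123, -3.25 and -3.84 in KURAMOCHI with simvastatin, and -4.34 and -4.38 with L-778123, where 1 of the 2 arrays was not well above background. The OVSAHO groups overlapped, and KURAMOCHI with L-778123 was the lowest group. In KURAMOCHI the difference was 0.82 (SE 0.20; limma, adjusted p = 0.0277), under 2-fold; without KURAMOCHI simvastatin replicate 2 it was 1.11 (adjusted p = 0.00864), past the threshold, and with normexp it was 0.27. The OVSAHO difference was -0.13 (limma, adjusted p = 0.618). Between the lines the contrasts differed by -0.95 (limma, adjusted p = 0.0617), not called over all arrays, and by -1.24 (adjusted p = 0.0147) without KURAMOCHI simvastatin replicate 2. Probe sequences were not used here, so signal shared between the CXCL1, CXCL2 and CXCL3 transcripts on a probe was not tested.

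CXCL8, another neutrophil attractant, was not well above background on any array. Its measured levels ran from -6.17 on a KURAMOCHI L-778123 array to -4.38 on an OVSAHO simvastatin array, and the other OVSAHO simvastatin array read -5.62. No fold change is given for it.

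CCL20, the ligand of CCR6, separated the lines more than the drugs. It read -2.54 and -2.52 in KURAMOCHI with simvastatin and -3.04 and -3.11 with L-778123, and in OVSAHO -4.48 and -4.35 with simvastatin, 1 of the 2 arrays not well above background, and -4.45 and -4.57 with L-778123. Both KURAMOCHI groups lay above both OVSAHO groups, which overlapped. In KURAMOCHI CCL20 was higher with simvastatin by 0.54 (SE 0.076; limma, adjusted p = 0.00472), under 2-fold, and by 0.23 with normexp. The OVSAHO difference was 0.10 (95% interval -0.088 to 0.29; limma, adjusted p = 0.321). The test of the difference between the contrasts gave -0.44 (SE 0.11; limma, adjusted p = 0.0359), which missed the threshold in 12 of 16 alternatives. Leaving out any 1 of the 4 KURAMOCHI arrays, OVSAHO L-778123 replicate 1 or OVSAHO simvastatin replicate 1 was among these, with values from -0.48 to -0.38 and adjusted p from 0.0739 to 0.101.

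IL6, a cytokine that signals through gp130 to STAT3, was well above background only on the KURAMOCHI L-778123 arrays. Those arrays read -3.61 and -3.59, the KURAMOCHI simvastatin arrays -5.33 and -4.15, the OVSAHO simvastatin arrays -6.63 and -6.00, and the OVSAHO L-778123 arrays -6.44 and -6.10. The OVSAHO groups overlapped, and the KURAMOCHI simvastatin arrays spread widely (SD 0.84, n = 2). For a group that is dim on both arrays the fold is given as a bound, against the lowest signal called well above background on each array or the probe's own signal if higher. Read so, IL6 in KURAMOCHI was at least 1.66-fold lower with simvastatin on these processed intensities. Such a bound leaves out the spread between arrays and is no confidence limit. The value with normexp can fall below it, here and for genes given further on. The fitted difference of -1.14 (SE 0.41; 95% interval -2.16 to -0.12; limma, adjusted p = 0.0880) was not called. Without KURAMOCHI simvastatin replicate 2 it was -1.73 (adjusted p = 0.0213), with the replicate block it passed the threshold (adjusted p = 0.0433), and with normexp it was -0.16. With L-778123, IL6 was at least 2.50-fold lower in OVSAHO than in KURAMOCHI, and no fold between the drugs is given in OVSAHO, where both groups were dim. The second IL6 probe was well above background on no array.

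LIF, another ligand of gp130 receptors, was lower with simvastatin in both lines by less than 2-fold. The OVSAHO arrays read 0.51 and 0.46 with simvastatin and 1.23 and 1.26 with L-778123, and the KURAMOCHI arrays -0.68 and -0.70 with simvastatin and 0.09 and 0.24 with L-778123. No groups overlapped, and both OVSAHO groups lay above both KURAMOCHI groups. The log2 difference was -0.76 (SE 0.069; limma, adjusted p = 5.35e-04) in OVSAHO and -0.86 (SE 0.069; limma, adjusted p = 8.15e-04) in KURAMOCHI. Between the lines the contrast differed by 0.098 (95% interval -0.14 to 0.34; limma, adjusted p = 0.517). A second LIF probe was well above background on 2 arrays only, and no difference is given for it.

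NFKBIA encodes IkBa, which binds NF-kB dimers and is itself a target of NF-kB. Its level was 5.54 and 5.61 in OVSAHO with simvastatin, 4.82 and 4.87 with L-778123, 5.32 and 5.39 in KURAMOCHI with simvastatin, and 5.36 and 5.31 with L-778123. The KURAMOCHI groups overlapped and lay between the OVSAHO groups. In OVSAHO NFKBIA was 1.66-fold higher with simvastatin, a log2 difference of 0.73 (SE 0.060; limma, adjusted p = 3.88e-04), under the 2-fold threshold. In KURAMOCHI the difference was 0.021 (95% interval -0.13 to 0.17; limma, adjusted p = 0.818). The contrasts differed by 0.71 (SE 0.085; limma, adjusted p = 0.00437).

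TNFAIP3, or A20, is a ubiquitin-editing enzyme that shuts off signalling to the IkB kinase. It read -1.040 and -0.998 in OVSAHO with simvastatin, -0.47 and -0.34 with L-778123, -1.27 and -1.35 in KURAMOCHI with simvastatin, and -0.66 and -0.55 with L-778123. No groups overlapped, and both simvastatin groups lay below both L-778123 groups. The difference was -0.61 (SE 0.075; limma, adjusted p = 0.00155) in OVSAHO and -0.70 (SE 0.075; limma, adjusted p = 0.00196) in KURAMOCHI, both under 2-fold. The lines differed in this contrast by 0.092 (95% interval -0.17 to 0.35; limma, adjusted p = 0.574). In OVSAHO, NFKBIA was thus higher and TNFAIP3 lower with simvastatin.

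**Figure D3:**
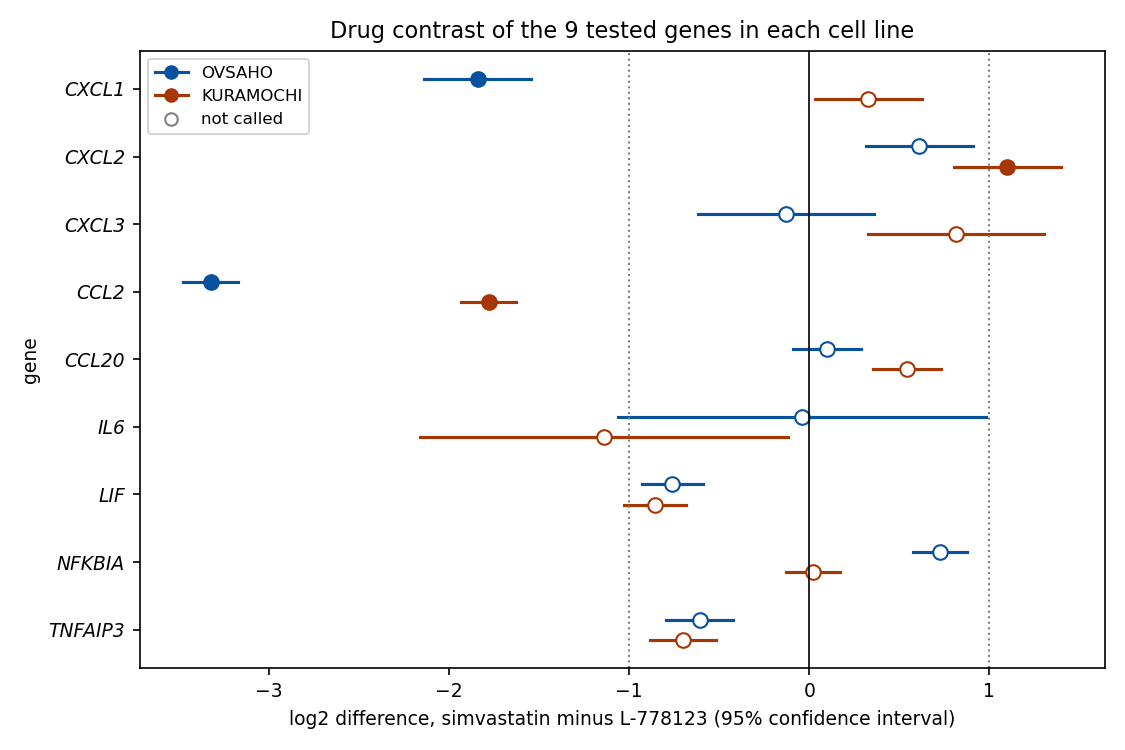
Drug contrast of the 9 tested genes, as log2 difference of simvastatin minus L-778123 (x axis) with its 95% confidence interval, 1 row per gene and 1 color per line; filled points were called, open points were not, and dotted lines mark 2-fold. The OVSAHO and KURAMOCHI intervals lie apart for CXCL1, CCL2, CCL20 and NFKBIA and overlap for LIF and TNFAIP3.

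The test of whether the drug contrast differed between the lines, which has no fold threshold, called 4 of the 9 genes. NFKBIA had the higher contrast in OVSAHO, and CXCL1, CCL2 and CCL20 the lower, where 27.4% of all tested genes were called. The median of the 9 differences was -0.44, beside -0.0088 over all tested genes. The 5 tested chemokines of the list all lay below 0, where 8623 of 16942 tested genes did. CXCL2 and CXCL3 were not called. Of 7 other chemokines tested, 4 lay below 0 and 3 above.

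Averaged over the drugs, 5 of the 9 genes were called between the lines, CXCL1 and LIF being higher in OVSAHO and CCL2, CCL20 and IL6 lower. Over all tested genes, 18.3% were called higher in OVSAHO and 16.4% lower, so line differences of this size were common on these arrays. The log2 difference of OVSAHO minus KURAMOCHI was 1.46 for CXCL1, 1.13 (SE 0.049; limma, adjusted p = 4.43e-06) for LIF and -1.15 (SE 0.043; limma, adjusted p = 2.64e-06) for CCL2. For CCL20 it was -1.66 (SE 0.054; limma, adjusted p = 1.48e-06). The drug contrast differed between the lines for CXCL1, CCL2 and CCL20, so their averages describe neither drug alone. Group means of CXCL1 in OVSAHO and KURAMOCHI were -0.631 and -1.002 with simvastatin and 1.212 and -1.331 with L-778123. Those of CCL2 were -0.963 and 0.954 with simvastatin and 2.362 and 2.735 with L-778123. The lines thus lay further apart in CXCL1 with L-778123 and in CCL2 with simvastatin. The call for IL6 (limma, adjusted p = 8.13e-04) rests on a probe that was well above background on 2 of the 8 arrays, so the only fold given is the bound of 2.50 with L-778123, and with simvastatin both lines were dim. CXCL3 (0.82) and TNFAIP3 (0.24) were higher in OVSAHO and NFKBIA (-0.13) lower, each by less than 2-fold with an adjusted p below the threshold. The NFKBIA average also describes neither drug alone. Its group mean was higher in OVSAHO than in KURAMOCHI with simvastatin (5.577 against 5.354) and lower with L-778123 (4.849 against 5.333). CXCL2 gave -0.17 (limma, adjusted p = 0.110). The median of the 9 genes was -0.13, beside 0.028 over all tested genes. With normexp, LIF (0.99), CCL2 (-0.97) and CCL20 (-0.54) were below 2-fold and IL6 lost its call. The summed fibroblast markers given above were also higher in KURAMOCHI, and their part in this contrast was not tested.

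Genes whose pattern over the 8 arrays was most like a member were measured by the root mean square distance between log2 levels centred on each gene's mean. For NFKBIA the nearest of 16933 genes were SH3PXD2A (0.044), TRIM2 (0.049) and SIPA1 (0.060), where the median gene lay at 0.518. Their drug differences in OVSAHO were 0.71, 0.81 and 0.87, and in KURAMOCHI 0.071, 0.027 and 0.039. For CCL2 the nearest were DTL (0.275), ESCO2 (0.281) and AJAP1 (0.283), where the median gene lay at 1.54. Their drug differences were -2.93, -2.68 and -2.91 in OVSAHO and -1.26, -1.42 and -1.18 in KURAMOCHI. The distance is not scaled to a gene's range of group means, which was 3.70 for CCL2 and 0.73 for NFKBIA. Distances from CCL2 and from NFKBIA were therefore not set against each other.

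Beyond the 10 genes, 132 genes of the same pathways were listed by role, of which 113 were tested. In OVSAHO 14 were called higher and 11 lower with simvastatin, with a median of 0.0056, and in KURAMOCHI 5 were called higher and 7 lower, with a median of -0.015. Over all tested genes these shares were 5.69% higher and 5.87% lower in OVSAHO and 2.43% and 2.93% in KURAMOCHI. The lists are given below by their counts, with the gene of the largest called rise and the largest called fall in each line.

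**Figure D4:**
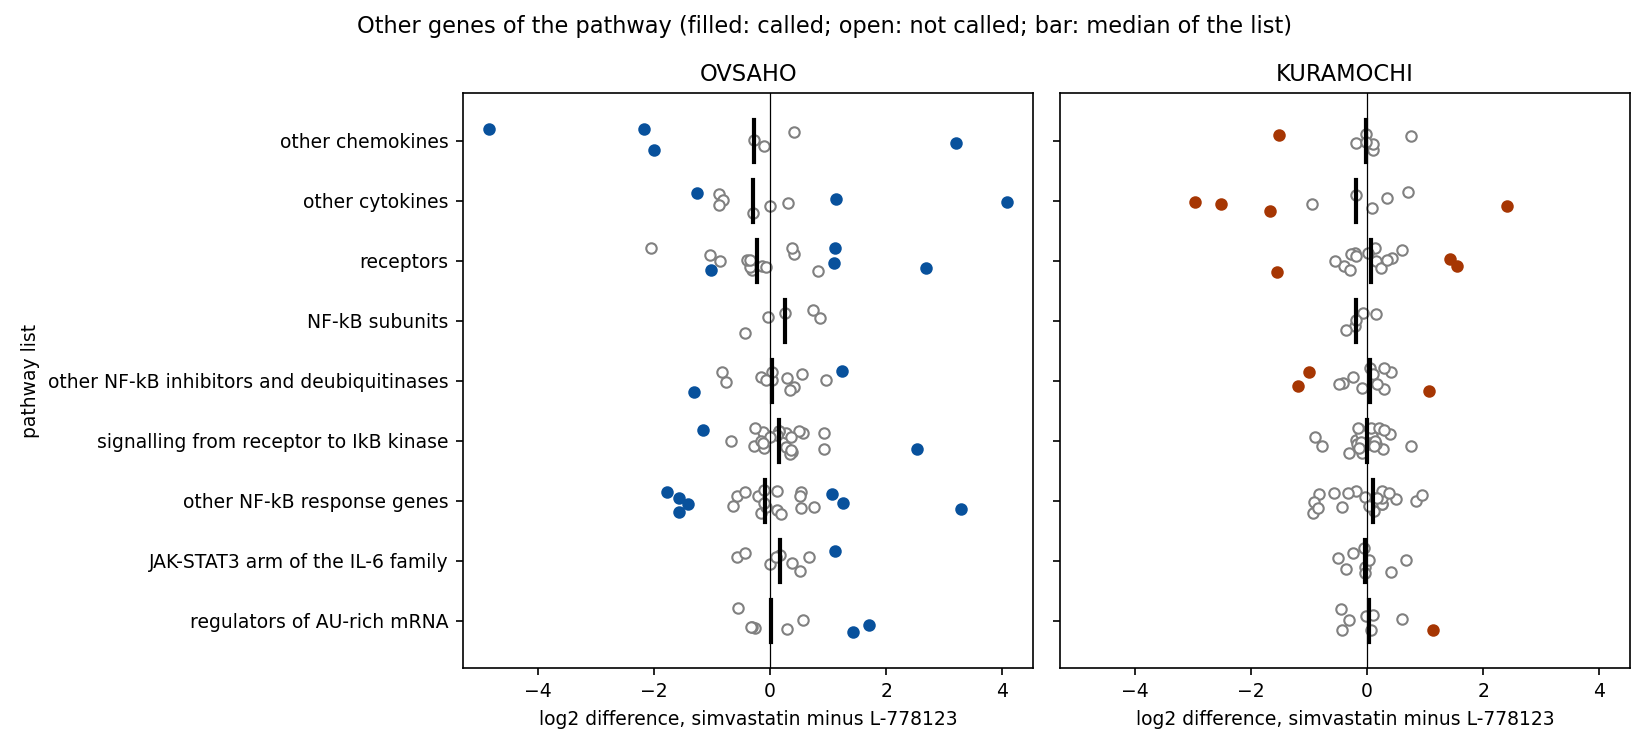
Log2 difference of simvastatin minus L-778123 (x axis) for the tested genes of 9 pathway lists (rows) in OVSAHO and KURAMOCHI; each point is a gene, filled points were called, and bars are list medians. List medians lie between -0.29 and 0.26 in OVSAHO and between -0.20 and 0.10 in KURAMOCHI, while single genes reach from -4.84 to 4.08 in OVSAHO.

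Of 7 other chemokines tested, 1 was called higher and 3 lower in OVSAHO, and 1 lower in KURAMOCHI. CXCL14, a chemokine of epithelia, read -5.37 and -5.56 with simvastatin and -0.69 and -0.55 with L-778123 in OVSAHO. It was not well above background on the simvastatin arrays, so it was at least 15.8-fold lower there (fitted -4.84; limma, adjusted p = 2.33e-05), or -2.21 with normexp, and it was dim on all KURAMOCHI arrays. CCL5, a T cell and monocyte attractant, went the other way in OVSAHO, reading -3.23 and -2.88 with simvastatin and -6.96 and -5.56 with L-778123. CCL5 was at least 3.65-fold higher with simvastatin (fitted 3.21; limma, adjusted p = 0.00244), and the fitted difference was 0.85, under 2-fold, with normexp. CXCL10, an interferon-induced chemokine, was well above background only with L-778123, at -4.39 and -4.59 in OVSAHO and -4.09 and -4.17 in KURAMOCHI. With simvastatin it was at least 1.08-fold lower in OVSAHO (fitted -2.17; limma, adjusted p = 0.00660) and at least 1.23-fold lower in KURAMOCHI (fitted -1.52; limma, adjusted p = 0.0345). The OVSAHO call for CXCL10 was lost with normexp (-0.17; adjusted p = 0.106) and in the two-way analysis of variance (adjusted p = 0.0926). The KURAMOCHI call was lost in 11 of 17 alternatives. These included normexp (-0.15; adjusted p = 0.200) and leaving out KURAMOCHI simvastatin replicate 2 (-0.90; adjusted p = 0.0415), either KURAMOCHI L-778123 array (-1.56 and -1.48; adjusted p = 0.108 and 0.119) or any 1 of the 4 OVSAHO arrays (adjusted p from 0.0532 to 0.0602).

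Among 9 other cytokines tested, 2 were called higher and 1 lower in OVSAHO, and 1 higher and 3 lower in KURAMOCHI. TNFSF10, the death ligand TRAIL, had the largest called rise of the list in both lines. It read 4.53 and 4.49 in OVSAHO with simvastatin against 0.38 and 0.47 with L-778123, and 1.81 and 1.79 in KURAMOCHI against -0.57 and -0.66. The TNFSF10 differences were 4.08 (SE 0.062; limma, adjusted p = 1.28e-05) in OVSAHO and 2.41 (SE 0.062; limma, adjusted p = 8.26e-05) in KURAMOCHI. LTB, a ligand that activates the noncanonical NF-kB route, was lower with simvastatin, with differences of -1.26 (limma, adjusted p = 5.20e-04) in OVSAHO and -1.67 (limma, adjusted p = 5.14e-04) in KURAMOCHI. IL33, an alarmin of the IL-1 family, had the largest called fall in KURAMOCHI, from 1.04 and 1.03 with L-778123 to -1.92 and -1.95 with simvastatin (-2.97; limma, adjusted p = 3.02e-04). In OVSAHO the IL33 difference was -0.81 (limma, adjusted p = 0.00938), under 2-fold. It was -1.02 without OVSAHO simvastatin replicate 1 and -0.011 (adjusted p = 0.909) with normexp.

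Of 16 receptors tested, 3 were called higher and 1 lower in OVSAHO, and 2 higher and 1 lower in KURAMOCHI. IL6R, the ligand-binding chain for IL6, was dim in OVSAHO on both L-778123 arrays and at least 3.00-fold higher with simvastatin (fitted 2.68; limma, adjusted p = 2.92e-04). With normexp the OVSAHO difference was 0.71, under 2-fold. In KURAMOCHI the IL6R levels were -0.69 and -0.77 with simvastatin and -2.29 and -2.04 with L-778123, a difference of 1.44 (SE 0.20; limma, adjusted p = 0.00499) that missed the threshold in the two-way analysis of variance (adjusted p = 0.0753). ACKR3, a scavenger receptor for CXCL12, was higher with simvastatin by 1.55 (SE 0.067; limma, adjusted p = 1.85e-04) in KURAMOCHI and by 1.098 (SE 0.067; limma, adjusted p = 1.38e-04) in OVSAHO. With normexp the OVSAHO difference of ACKR3 was 0.98, just under 2-fold. TLR3, a sensor of double-stranded RNA, was lower with simvastatin in OVSAHO, with a difference of -1.01 (SE 0.074; limma, adjusted p = 2.54e-04), a value at the 2-fold threshold. It was below 2-fold with normexp (-0.40), with scaling to probes above background (-0.998) and without OVSAHO L-778123 replicate 2 (-0.93). TLR2, a sensor of bacterial lipoproteins, was dim in KURAMOCHI on both simvastatin arrays and there at least 1.18-fold lower (fitted -1.55; limma, adjusted p = 0.0205). The TLR2 call was lost in 7 of 17 alternatives, among them normexp (-0.15; adjusted p = 0.120) and the two-way analysis of variance (adjusted p = 0.202). These also included runs without KURAMOCHI L-778123 replicate 1 (-1.47; adjusted p = 0.0871), KURAMOCHI L-778123 replicate 2 (-1.63; adjusted p = 0.0705) or KURAMOCHI simvastatin replicate 2 (-0.98).

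None of the 5 NF-kB subunits was called by limma in either line, and the two-way analysis of variance called 0. By limma, 4 of 5 had an unadjusted p under 0.05 in each line. Of all 113 other pathway genes, 82 had one in OVSAHO and 62 in KURAMOCHI. The share over all tested genes is not given for such counts, here or in the lists below. With differences under 2-fold, 3 higher and 1 lower passed limma's adjusted p in OVSAHO, and 0 higher and 3 lower in KURAMOCHI. The difference between the lines was called for NFKB2, RELA and RELB, which are named here after their values were seen. RELA, the transactivating partner of the main NF-kB dimer, was higher with simvastatin by 0.86 (SE 0.058; limma, adjusted p = 1.92e-04) in OVSAHO and by 0.15 (limma, adjusted p = 0.101) in KURAMOCHI. RELB, of the noncanonical route, differed by 0.74 (limma, adjusted p = 2.48e-04) in OVSAHO and -0.19 (limma, adjusted p = 0.0429) in KURAMOCHI. The contrasts differed by 0.71 for RELA, 0.94 for RELB and 0.47 for NFKB2, and the NFKB2 call was lost without KURAMOCHI simvastatin replicate 1 (0.45; adjusted p = 0.0540) and with no filter on dim probes (adjusted p = 0.0714).

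Among 13 other inhibitors and deubiquitinases tested, 1 was called higher and 1 lower in OVSAHO, and 1 higher and 2 lower in KURAMOCHI. BCL3, an atypical nuclear IkB protein, was higher with simvastatin by 1.24 (SE 0.080; limma, adjusted p = 1.63e-04) in OVSAHO and 1.07 (SE 0.080; limma, adjusted p = 6.61e-04) in KURAMOCHI, where it was 0.999, just under 2-fold, without KURAMOCHI simvastatin replicate 2. NFKBID, another nuclear IkB protein, was lower with simvastatin, with differences of -1.31 (limma, adjusted p = 6.10e-05) in OVSAHO and -1.19 (limma, adjusted p = 2.47e-04) in KURAMOCHI. These 2 atypical IkB genes thus passed the 2-fold threshold in both lines in opposite directions.

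Signalling components between receptor and IkB kinase gave 1 call higher and 1 lower of 24 in OVSAHO. IRAK2, a kinase of the Toll and IL-1 receptor route, was higher with simvastatin by 2.53 (SE 0.091; limma, adjusted p = 3.36e-05), reading 2.94 and 3.03 against 0.50 and 0.40. IKBKE, an IkB kinase related to TBK1, was lower, with a difference of -1.16 (SE 0.10; limma, adjusted p = 4.32e-04) that was -0.73 with normexp. In KURAMOCHI limma called 0 of 24, with 7 at an unadjusted p under 0.05, and the two-way analysis of variance called 0. Of these 24, 3 higher and 3 lower passed limma's adjusted p there and missed only the 2-fold threshold.

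Of 22 other NF-kB response genes tested, 3 were called higher and 4 lower in OVSAHO. KLF6, a zinc finger transcription factor, read 6.09 and 6.02 with simvastatin and 2.74 and 2.79 with L-778123, a difference of 3.29 (SE 0.061; limma, adjusted p = 1.28e-05). SAA1, an acute phase protein, was lower with simvastatin, with a difference of -1.78 (SE 0.45; limma, adjusted p = 0.0216), reading -3.15 and -3.17 against -1.56 and -1.19. The SAA1 call was lost with normexp (-0.87) and in the two-way analysis of variance (adjusted p = 0.203). Leaving out any 1 of the 4 OVSAHO arrays also ended it, with values from -1.97 to -1.60 and adjusted p from 0.0599 to 0.0960. In KURAMOCHI limma called 0 of 22, with 14 at an unadjusted p under 0.05, and the two-way analysis of variance called 0. Of these 22, 4 higher and 7 lower passed limma's adjusted p there and missed only the 2-fold threshold.

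In the JAK-STAT3 arm of the IL-6 family, limma called 1 gene of 9 higher in OVSAHO and 0 of 9 in KURAMOCHI, where 5 had an unadjusted p under 0.05 and the two-way analysis of variance called 0. In KURAMOCHI 1 higher and 3 lower passed limma's adjusted p with differences under 2-fold. PIM1, a kinase induced by STAT3, was higher with simvastatin in OVSAHO by 1.13 (SE 0.056; limma, adjusted p = 7.70e-05) and differed by -0.49 (limma, adjusted p = 0.00235) in KURAMOCHI. Of 8 regulators of AU-rich mRNA, which bind or control the decay of cytokine transcripts, 2 were called higher in OVSAHO and 1 in KURAMOCHI. ZFP36, or tristetraprolin, was higher by 1.71 (SE 0.065; limma, adjusted p = 3.87e-05) in OVSAHO and differed by -0.015 in KURAMOCHI. ZFP36L2, its relative, was higher by 1.14 (SE 0.083; limma, adjusted p = 6.13e-04) in KURAMOCHI and differed by 0.29 in OVSAHO.

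Between the lines, the drug contrast of the 113 other genes differed for 44, with 26 higher and 18 lower in OVSAHO, where 27.4% of all tested genes were called. The count was 24 with no filter on dim probes, 28 without either OVSAHO simvastatin array and 29 without KURAMOCHI L-778123 replicate 1. Averaged over the drugs, 30 were called higher in OVSAHO and 19 lower, where 18.3% and 16.4% of all tested genes were.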

How the data were processed

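RNA of the 4 groups, 2 arrays each, was hybridized to 8 Agilent one-color human arrays. Per the labels, Feature Extraction 11.5.1.1 read the images, and the files deposited by the authors hold the processed intensity of each spot, corrected for background by that software. The processed intensity was divided by the 75th percentile of its array and log2 transformed. The authors' table of intensities, log2 transformed here, behaved as quantile normalized intensities of the same arrays (r of at least 0.999 with the scanner values; its sorted values above the median differ by under 0.001 on the log2 scale) and served as an alternative.

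Of 58201 probes, 58162 had an unflagged spot on every array, and 31079 had 1 symbol after their identifiers were matched to RefSeq; 24768 of 50069 identifiers were named. A probe was tested if flagged well above background on each array of any group, which left 33753 probes. The test was limma's (version 3.58.1, R 4.3.3), fitted with lmFit and eBayes to 1 mean per group over all 8 arrays, with Benjamini-Hochberg adjustment. Calls needed an adjusted p under 0.05 and 2-fold, without the fold for the difference between lines. Intervals are 95%. Promoters were aligned with Biopython 1.88, and matplotlib 3.10.9 under Python 3.11.15 drew the figures. On data simulated for the OVSAHO contrast over 33753 probes, 176 of 200 changed probes were recovered with 6 false calls. All changes put into these data were well past 2-fold, so recovery of smaller differences or of those near 2-fold was not tested.

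The 10 genes and all gene lists were chosen with earlier results of these data known. From each other list, the largest called rise and the largest called fall in each line are named, and for NFKBIA and the gene with the widest range of group means the 3 genes nearest in pattern. Samples sharing a replicate number in different groups did not deviate together (r of deviations 0.00085 to 0.056), so the numbers were not taken as pairs. Alternatives were normexp background correction (offset 50, median spot signal), other normalizations, filters, fold thresholds and probe summaries, a fit of only the 2 groups compared, the two-way analysis of variance of the methods, the replicate block, and leaving out each array. The analysis of variance used Tukey's test for the drug contrast in each line. It used an F test for the difference between the contrasts and for the lines. Its categories, named in the methods as cell and siRNA, were read as cell line and drug.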

Additional observations from a re-analysis of the deposited data

Results flagged for a closer look

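The drug contrast, as simvastatin minus L-778123 on the log2 scale, differed between OVSAHO and KURAMOCHI by limma's test of the difference for these genes. Among the 10 genes the OVSAHO minus KURAMOCHI value was -2.17 for CXCL1, -1.54 for CCL2, -0.44 for CCL20 and 0.71 for NFKBIA. CXCL1, CCL2 and NFKBIA passed the threshold in each of the 17 alternatives tried, with adjusted p up to 0.00812, 0.00438 and 0.0247, and CCL20 passed in 4 of 16.

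Among the other pathway genes, OVSAHO had the higher contrast for CCL5 (2.45), TNFSF10 (1.67), IL33 (2.16), IL6R (1.25), IRAK2 (1.78), KLF6 (3.03), PIM1 (1.62), ZFP36 (1.72), NFKB2 (0.47), RELA (0.71) and RELB (0.94). It had the lower contrast for CXCL14 (-4.95), TLR3 (-1.17), ACKR3 (-0.46), SAA1 (-2.63) and ZFP36L2 (-0.85). Levels not well above background entered the fits of CCL5, CXCL14, IL33, IL6R and SAA1.

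The difference was lost for CCL5 with normexp (0.27; adjusted p = 0.280), with no filter on dim probes (adjusted p = 0.0971), in the two-way analysis of variance (adjusted p = 0.104) and without any 1 of the 4 KURAMOCHI arrays or either OVSAHO simvastatin array (2.24 to 2.65; adjusted p from 0.0813 to 0.114). For IL6R it was lost without any 1 of these 6 arrays (1.09 to 1.40), and with normexp it passed the threshold in the opposite direction (-0.30; adjusted p = 0.0458). The IL6R difference was also lost by limma with no filter (adjusted p = 0.0796), quantile normalization (adjusted p = 0.0505) and the authors' table (adjusted p = 0.0502). In the two-way analysis of variance it was lost too (adjusted p = 0.0808). For SAA1 it was lost without any 1 of the 4 OVSAHO arrays or either KURAMOCHI L-778123 array (-2.81 to -2.45). The SAA1 difference was also lost by limma with no filter (adjusted p = 0.0845), quantile normalization (adjusted p = 0.0511) and the authors' table (adjusted p = 0.0507). In the two-way analysis of variance it was lost too (adjusted p = 0.0935). For ACKR3 it was lost without any 1 of the L-778123 arrays, KURAMOCHI simvastatin replicate 2 or OVSAHO simvastatin replicate 1 (-0.48 to -0.40). The ACKR3 difference was also lost with no filter (limma, adjusted p = 0.0908).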

How the results depend on the processing

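Of the values of the 10 genes under the alternatives, 586 kept their direction and side of the threshold, 19 lost the call, 6 gained one and 7 changed sign. Without the fold threshold 6 of the 9 tested genes were called in each line and 8 between the lines, and at 1.5-fold 6 in OVSAHO and 5 in KURAMOCHI. Of the 113 other pathway genes tested, no fold threshold gave 76 in OVSAHO, 51 in KURAMOCHI and 99 between the lines, and 1.5-fold gave 41 and 24. The share over all tested genes at these thresholds is not given, so the counts are not read as a result about the listed genes. Normexp gave 14 other genes in OVSAHO, 1 of the 10 genes in KURAMOCHI (CCL2, with CXCL2 at 0.71) and 1 between the lines. Requiring signal well above background on all 8 arrays gave 3 between the lines, and no filter gave 24 other genes for the difference between the contrasts. Leaving out 1 array gave 2 to 2 of the 10 genes in OVSAHO, 1 to 4 in KURAMOCHI (1 without KURAMOCHI L-778123 replicate 1, 4 without KURAMOCHI simvastatin replicate 2), 3 to 5 for the difference and 5 to 5 between the lines. For the other genes it gave 22 to 26, 9 to 12, 28 to 34 (against 44 over all arrays, with 28 without either OVSAHO simvastatin array and 29 without KURAMOCHI L-778123 replicate 1) and 48 to 51.

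The values that changed sign were CXCL2 between the lines with the median over probes (0.18), CXCL3 in OVSAHO with normexp (0.033), and IL6 in OVSAHO with normexp (0.18) and, over the fits leaving out 1 array, from -0.36 to 0.28 (0.13 without OVSAHO L-778123 replicate 2 and 0.28 without OVSAHO simvastatin replicate 1). In KURAMOCHI, leaving out 1 array gave NFKBIA from -0.012 to 0.054 (-0.0048 without L-778123 replicate 2 and -0.012 without simvastatin replicate 2) and CXCL14 from -0.087, without L-778123 replicate 2, to 0.29. ZFP36 in KURAMOCHI was 0.0030 with quantile normalization, 0.0035 in the authors' table, and -0.072 to 0.042 leaving out 1 array, the higher without KURAMOCHI L-778123 replicate 2. With normexp TLR2 was 0.034 in OVSAHO, and the difference between the contrasts was -0.075 for LTB and -0.30 for IL6R, which passed the threshold in this direction (adjusted p = 0.0458). The cause was not tested.

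With the replicate block, IL6 in KURAMOCHI gained a call (adjusted p = 0.0433), and the differences between the contrasts of CCL20 (adjusted p = 0.0652) and SAA1 (adjusted p = 0.0506) lost theirs; no other call of the 10 genes or of the pathway genes named in the lists changed. Signal over background limits IL6, CXCL3, CCL20 and the dim groups given as bounds.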
